A study of Mus musculus with 8 samples.

Results

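Of 16166 c-Jun peaks called in mouse epiblast stem cells (EpiSCs), 345 held at least 1 full CRE, the 8-bp palindrome TGACGTCA, in their central 200 bp. These 345 CRE peaks (2.13% of the list, 95% Wilson interval 1.92 to 2.37%) were chosen from the mm10 sequence alone, with no measured value in the rule, by searching 100 bp on either side of the midpoint of each peak for an exact match. They were compared with the 7371 peaks that held the 7-bp TRE (TGACTCA or TGAGTCA, both strands) and no CRE, and with the 8450 peaks that held neither site. Of the CRE peaks, 45 also held a TRE, so that 7416 peaks held a TRE in all.

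EpiSCs are primed pluripotent cells of the post-implantation epiblast and, per the growth protocol in the labels, were grown without feeders on serum-coated wells in medium with Activin A and bFGF. The paper also describes culture on feeders. The study asked what c-Jun does in the transitions between the naive and primed states, and the paper describes c-Jun ChIP-seq in EpiSCs. The series also holds libraries of kEpiSCs, the same kind of cell with a stably selected lentiviral Klf4 transgene and an Oct4-GFP reporter. These can be driven back to the naive state. For both lines, 2 libraries came from c-Jun ChIP and 2 from input, which makes 8. Per the labels the wild type EpiSC ChIP libraries are of the strain CBA/CaJ X C57BL/6J, whereas the paper's methods derive EpiSCs from 129 females and males of the Oct4-GFP strain OG2. The labels used here give no strain for the kEpiSC libraries. The methods name a lentiviral vector for Klf4 and the main text a CAG promoter. The antibody field of the labels and the paper name c-Jun as the target, while the protocol text in the labels names H3K27ac. The authors deposited 1 peak list per line. It is mentioned under replicate 1 of the ChIP, and whether replicate 2 went into it is not stated. There is therefore no spread between replicates, and every interval and test below covers only the counting error over peaks of 1 list, which are not replicates.

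The CRE, or cyclic AMP response element, is the classical site of CREB and ATF proteins, which bind it as basic leucine zipper dimers, and it is best known from short-range promoter elements of genes induced by cyclic AMP or stress. The TRE differs by the loss of the central base pair and is the classical AP-1 site of Jun-Fos dimers. c-Jun can pair with Fos family proteins and with ATF family proteins such as ATF2, and Jun-ATF dimers are known to prefer the CRE. The dimer partner was not measured in these libraries.

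The sequences of the CRE peaks that the results turn on are shown first. They are from the forward strand of mm10 (RefSeq GRCm38.p6), with every exact CRE and TRE in capitals and the other bases in lower case. Lines with 1 site show 26 bp on either side of it, and the others run from the first to the last site with 10 bp added at each end. The first set comes from the peaks with the highest scores, where the CRE stood alone or beside TREs.
Gpld1 (chr13:24949016-24949116): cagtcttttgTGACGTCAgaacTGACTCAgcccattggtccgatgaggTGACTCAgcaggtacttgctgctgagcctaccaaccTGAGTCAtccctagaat
Dnah8 (chr17:30656948-30657007): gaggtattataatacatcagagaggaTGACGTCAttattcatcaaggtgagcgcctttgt
Csrp1 (chr1:135732006-135732065): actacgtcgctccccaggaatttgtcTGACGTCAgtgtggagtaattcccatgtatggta
Xylt1 (chr7:117091055-117091122): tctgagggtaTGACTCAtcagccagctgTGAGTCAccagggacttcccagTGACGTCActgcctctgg
Trak1 (chr9:121389435-121389494): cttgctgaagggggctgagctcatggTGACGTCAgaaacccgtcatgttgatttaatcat
Slc35g2 (chr9:100606075-100606134): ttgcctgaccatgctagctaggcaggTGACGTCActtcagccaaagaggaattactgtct
The highest-scoring CRE peak lay in intron 3 of Gpld1, which encodes a phospholipase that releases GPI-anchored proteins, 5902 bp downstream of the TSS. Its fold enrichment over the local background was 28.1, from 40 reads at the summit, and its CRE stood 11 bp (centre to centre) from the nearest of 3 TREs. The second, with a fold of 19.1, lay in coding sequence in exon 10 of Dnah8, an axonemal dynein heavy chain gene. Its central 200 bp held no TRE. In kEpiSCs both sites were again within a peak, with a fold of 14.3 at Gpld1 and 13.5 at Dnah8. The peak in intron 1 of Csrp1, which encodes a LIM domain protein of the actin cytoskeleton, had a fold of 18.0 in EpiSCs and overlapped no peak in the kEpiSC list. At Xylt1, whose enzyme starts the glycosaminoglycan chains of proteoglycans, the peak had a fold of 16.9 and lay 289957 bp upstream of the TSS with 2 TREs beside the CRE. The peak in intron 2 of Trak1, an adaptor for mitochondrial transport, had a fold of 17.8 and the one 35001 bp upstream of Slc35g2 had a fold of 16.7. None of the 10 highest-scoring CRE peaks lay at a promoter, and 3 of them held a TRE in the central 200 bp. In another of the 10, near Zbtb38, a TRE stood beside the CRE within the called peak but outside that window.

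The second set shows CREs next to transcription start sites, in the order of the peak score.
Birc2 (chr9:7837059-7837118): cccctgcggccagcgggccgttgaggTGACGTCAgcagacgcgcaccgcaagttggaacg
Ndufa10 (chr1:92473792-92473851): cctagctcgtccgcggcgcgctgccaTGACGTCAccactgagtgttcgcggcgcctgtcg
Btg2 (chr1:134079288-134079347): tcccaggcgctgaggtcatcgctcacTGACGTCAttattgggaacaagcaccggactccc
Dusp1 (chr17:26508582-26508641): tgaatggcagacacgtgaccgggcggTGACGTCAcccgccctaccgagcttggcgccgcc
The CRE was centred 32 bp upstream of the TSS at Birc2, which encodes an inhibitor of apoptosis, and 64 bp upstream at Ndufa10, a subunit of mitochondrial complex I. It was centred 163 bp upstream at Btg2, an antiproliferative gene, and 140 bp upstream at Dusp1, which encodes a phosphatase of MAP kinases. From the peak summit the CRE was centred 36 bp away at Birc2, 5 bp at Ndufa10, 59 bp at Btg2 and 125 bp at Dusp1. The upper quartile over all CRE peaks was 54 bp, so the Dusp1 summit did not sit on the CRE. The folds of these 4 peaks in EpiSCs were 11.5, 8.99, 9.45 and 9.35, in that order. All of these values lie above the median of the EpiSC list (6.16). They lie below those of the first set, which was chosen for the highest scores, so this order is not read as an effect of location.

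The third set shows peaks with several CREs, of which there were 16 among the 345. Only the peak near Pmepa1 held 3.
Pmepa1 (chr2:173362095-173362177): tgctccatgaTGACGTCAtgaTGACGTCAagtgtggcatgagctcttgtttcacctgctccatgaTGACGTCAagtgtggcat
Pak1 (chr7:97788297-97788376): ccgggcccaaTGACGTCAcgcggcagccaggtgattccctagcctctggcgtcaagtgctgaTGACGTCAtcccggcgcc
Braf (chr6:39725527-39725572): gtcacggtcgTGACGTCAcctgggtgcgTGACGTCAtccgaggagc
Dusp8 (chr7:142095330-142095401): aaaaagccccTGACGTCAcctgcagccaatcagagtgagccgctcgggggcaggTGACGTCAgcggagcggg
At Pmepa1, a gene that limits TGF-beta signalling, the 3 CREs lay 85572 bp upstream of the TSS, the nearest of them 11 bp apart, in a peak with a fold of 11.6 that overlapped no kEpiSC peak. At Pak1 and Braf, which encode protein kinases, 2 CREs lay 52 and 18 bp apart upstream of the TSS, in peaks with a fold of 9.35 and 7.72 in EpiSCs and 9.85 and 8.34 in kEpiSCs. At Dusp8, which encodes a phosphatase that acts on JNK, the pair lay 44 bp apart, with a fold of 5.45 in EpiSCs and 10.2 in kEpiSCs. Spacings of 16 bp occurred at Ralgapa1, Prr7, Lekr1 and BC048403. The 16 peaks had a median fold of 7.07 (4.39 to 11.6), which lies within the quartiles of all CRE peaks (5.15 to 7.94).

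A full CRE was 19.7 times (95% interval 13.9 to 27.9) as frequent in the central 200 bp of EpiSC peaks as in windows of the same length 2000 bp away, where 35 of 32332 held one (0.108%). For peaks outside promoters the ratio was 14.1 (9.77 to 20.2). Among promoter peaks 7.13% (113 of 1584) held a CRE against 2 of 3168 flanks. Windows of 200 bp taken next to TSSs, whether or not c-Jun was there, held a CRE in 1.91% (200 bp upstream to the TSS) and 1.99% (100 bp on either side of it). For the TRE the share was 45.9% in peaks and 4.02% in flanks, a ratio of 11.4 (10.8 to 12.1). Among the 256 palindromes of 8 bp, 216 were in at least 10 flanks, and of these the CRE had the highest ratio of peaks to flanks. The next was GGCGCGCC with a ratio of 9.17. Words that differ from the CRE by 1 base had lower ratios, from 1.53 to 5.69. Counting positions from 1 at the 5′ end of TGACGTCA, the highest ratio was 5.69 (3.80 to 8.50) for A3G (TGGCGTCA) and the lowest was 1.53 (0.918 to 2.55) for T1G (GGACGTCA). A change of the central C to T, C4T, gave TGATGTCA in 750 peaks with a ratio of 4.36 (3.84 to 4.95). With 1 mismatch allowed anywhere in the CRE, 16.4% of peaks had a match and the ratio to flanks was 3.52, lower than for the exact word.

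CRE matches, like TRE matches, were most frequent next to the summits. The highest 20-bp bin held 0.526 CREs per 100 peaks against a mean of 0.0158 beyond 800 bp, a ratio of 33.3. The same ratio for the TRE was 28.9. In CRE peaks the nearest CRE was centred a median of 29 bp (quartiles 14 to 54) from the summit, and in TRE peaks the nearest TRE 23 bp (10 to 45). Peaks with a TRE held more sites each, with 8883 TRE matches in 7416 peaks against 362 CRE matches in 345. How far this shortens the distance of the nearest site was not tested. A site within 20 bp of the summit was found in 38.0% of CRE peaks and 45.7% of TRE peaks, a difference of -7.69 percentage points (-12.8 to -2.35, Fisher's exact test, adjusted p = 0.0112 over the 12 comparisons made). The difference did not pass the threshold in the same exact test among peaks that scored above the list median (-5.74 points, adjusted p = 0.271) or when CRE peaks with a TRE were left out (-4.67 points, adjusted p = 0.165). No difference in width was detected, since 47.2% of CRE peaks and 46.2% of TRE peaks were wider than the list median of 190 bp (difference 1.07 points, -4.27 to 6.46, Fisher's exact test, adjusted p = 0.763).

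**Figure D1:**
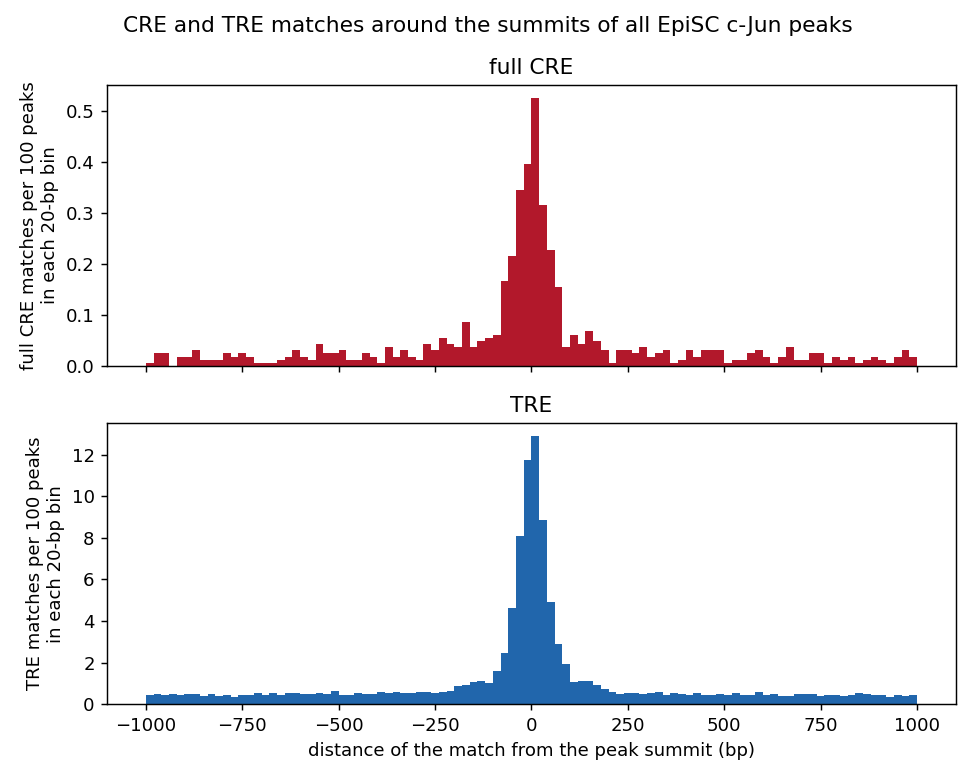
Matches of the full CRE (upper panel) and the TRE (lower panel) by distance from the summit over all EpiSC c-Jun peaks, in matches per 100 peaks and 20-bp bin; the vertical scales differ. Both have their maximum beside the summit, with 0.526 CREs and 12.9 TREs per 100 peaks.

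CRE peaks lay at promoters far more often than TRE peaks did. A promoter, taken as 1000 bp upstream to 100 bp downstream of a curated RefSeq TSS, contained the centre of 113 of the 345 CRE peaks (32.8%, 28.0 to 37.9%) and of 255 of the 7371 TRE peaks (3.46%, 3.07 to 3.90%). The difference was 29.3 percentage points (24.5 to 34.4, odds ratio 13.6, Fisher's exact test, adjusted p = 2.44e-67). Peaks with neither site were at promoters in 14.4% of cases. The other CRE peaks were in introns (111), between genes (97), in coding exons (13), in UTRs (7) and in exons of noncoding RNAs (4). A centre within 1000 bp of a protein-coding TSS was found for 35.4% of CRE peaks and 4.16% of TRE peaks, and one over 50 kb away for 19.4% and 32.6%. The median distance was 8276 bp for CRE peaks and 27653 bp for TRE peaks. CREs were therefore found both next to TSSs and far from them, with 67 CRE peaks over 50 kb from a TSS.

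**Figure D2:**
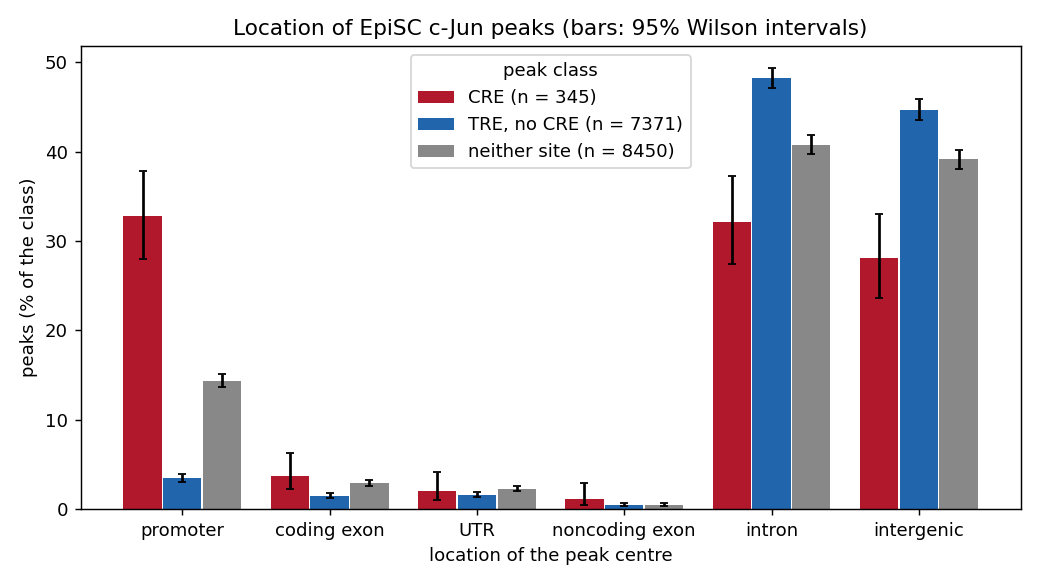
Share of peaks (%, vertical axis) by location of the peak centre for CRE peaks, TRE peaks without a CRE and peaks with neither site, with 95% Wilson intervals over peaks. CRE peaks stand at 32.8% at promoters against 3.46% for TRE peaks, and below TRE peaks in introns and between genes.

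CpG islands hold many promoters, and the CRE itself contains a CpG, so CpG content was measured outside the site. The ratio of observed to expected CpG in the rest of the window was 0.6 or more in 40.0% of CRE peaks and 5.03% of TRE peaks, a difference of 35.0 points (29.9 to 40.2, Fisher's exact test, adjusted p = 5.14e-76). It was 0.6 or more in 88.5% of CRE peaks at promoters and in 16.4% of those elsewhere. For TRE peaks these shares were 33.7% and 4.00%. Among windows with a ratio of at least 0.6, 72.5% of CRE peaks (100 of 138) and 23.2% of TRE peaks were at promoters. Among windows below it the shares were 6.28% (13 of 207) and 2.41%. CpG content and promoter location moved together in these peaks, and the part of CpG content in the promoter share was not tested beyond these values.

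At promoters the CRE lay close to the TSS and mostly upstream of it. In 94 of the 113 promoter CRE peaks (83.2%) a CRE was centred within 200 bp of a protein-coding TSS, and in 96 (85.0%) it was upstream. The median position was 36 bp upstream, with quartiles at 118 and 10 bp upstream. Among the 255 promoter TRE peaks, 108 (42.4%) had a TRE within 200 bp of a TSS. TSSs on both strands within 1000 bp of the site, noncoding genes included, were present at 15.0% of promoter CRE peaks (9.61 to 22.8%) and 6.27% of promoter TRE peaks (3.90 to 9.95%). Whether these TSSs point away from each other was not counted. At 4 promoter CRE peaks the nearest protein-coding TSS was over 1000 bp from the CRE, as at Nemf (4354 bp), and the promoter was that of a noncoding gene.

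**Figure D3:**
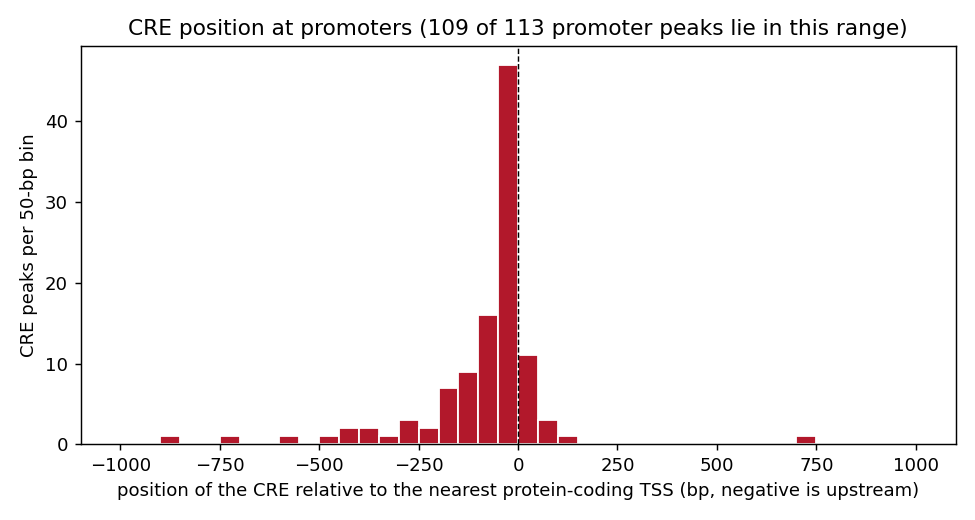
Number of promoter CRE peaks in 50-bp bins by position of the CRE relative to the nearest protein-coding TSS, with upstream negative. The highest bin, next to the TSS on its upstream side, holds 47 of the 109 peaks drawn, and 4 peaks lie outside the range of 1000 bp on either side.

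The highest-scoring promoter CRE peak was at Bcas2, a component of the spliceosome, with a fold of 10.2 from 29 reads and the CRE centred 36 bp downstream of the TSS. At Atp5d, a subunit of mitochondrial ATP synthase, the fold was 12.1 and the CRE lay farther out, 879 bp upstream. At Taf11, a subunit of the general transcription factor TFIID, the CRE was centred 25 bp upstream and the fold was 11.0. Rcan1, which encodes a regulator of calcineurin, had the same fold of 11.0, with the CRE 172 bp upstream of the TSS and a TRE 65 bp from it. At Abce1, which acts in ribosome recycling, the CRE was 7 bp upstream with a fold of 10.5 and TSSs on both strands. Ralgapa1 (fold 9.89), Ctc1 (9.41), which acts at telomeres, and Mpzl3 (9.58) also had a CRE within 200 bp of the TSS. Of these 8 genes, Taf11, Abce1 and Mpzl3 had a kEpiSC peak over the CRE, with folds of 6.31, 4.98 and 7.09. At Rcan1 a kEpiSC peak (6.70) overlapped the EpiSC peak and ended before the CRE. The 5 lowest-scoring CRE peaks included promoters as well, with a fold of 3.59 at Zscan18 and 2.85 at Ndufb2, a subunit of complex I. The others of the 5 were in introns of Fat1 (3.70), Anxa2 (3.70) and Dsn1 (2.85).

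CREs were also counted over the whole genome, whether or not c-Jun was there. Of 14499 exact CREs in mm10, 432 (2.98%) lay within an EpiSC peak of any width. Of 641 CREs within 200 bp of a TSS and outside soft-masked repeats, 126 were in a peak (19.7%, 16.8 to 22.9%), against 11.7% (10.2 to 13.3%) of the TREs there. In the rest of the promoter the shares were 12.2% (8.37 to 17.6%) for CREs and 5.19% (4.47 to 6.02%) for TREs. Outside promoters they were 2.62% (2.33 to 2.93%) and 2.68% (2.63 to 2.73%), and these intervals overlap. The genome also holds more of its CREs near genes, with 5.65% of CREs and 1.16% of TREs in promoters. Among 32851 RefSeq promoter sequences of 300 bp (GRCm38.p6), 1.79% held a CRE and 5.20% a TRE.

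**Figure D4:**
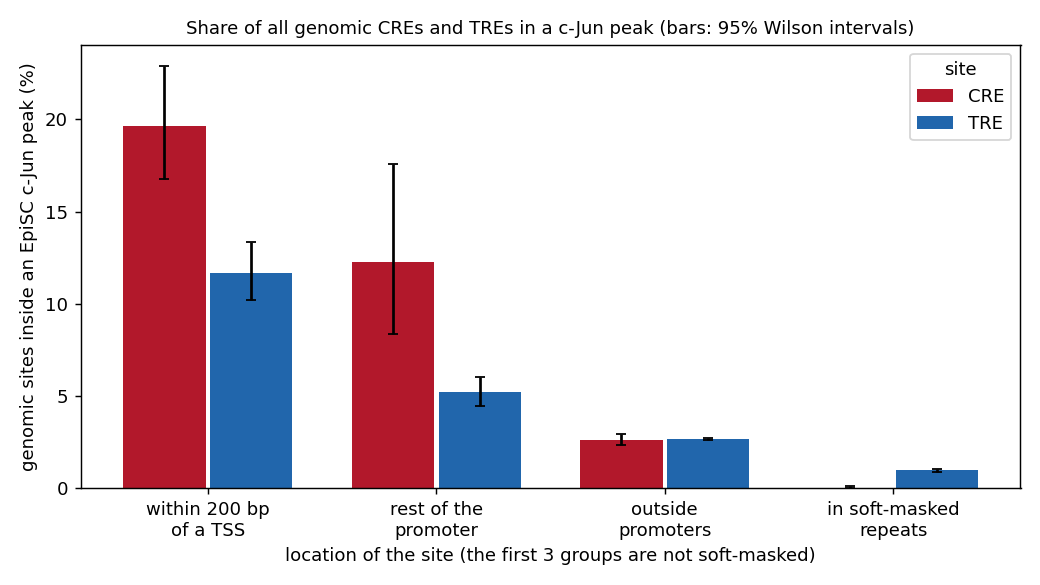
Share of all exact CREs and TREs in mm10 that lie within an EpiSC c-Jun peak (%, vertical axis), by location of the site, with 95% Wilson intervals over sites. CREs stand at 19.7% within 200 bp of a TSS and 2.62% outside promoters, and at 0 in soft-masked repeats.

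No CRE in a peak lay in repeat sequence. None of the 362 CRE matches in the 345 peaks was soft-masked, which allows a share of up to 0.870% of CRE peaks when the limit is set at 3 counts of the total. For the test only the site nearest to the window centre was taken. It was masked in 0 of the 345 CRE peaks and in 552 of the 7371 TRE peaks (7.49%, Fisher's exact test, adjusted p = 2.83e-11). Repeats held 19.8% of genomic CREs and 17.9% of genomic TREs. Of the 2865 masked CREs none was in an EpiSC peak, which allows up to 0.105% by the same limit, against 0.971% (0.904 to 1.04%) of the 77561 masked TREs. The authors kept uniquely mapped reads, and how far mappability differs between masked CREs and TREs was not tested. No 20-bp sequence around a CRE occurred in more than 1 CRE peak.

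The bases next to the CRE were counted in peaks and outside them. Read outward from each end of the palindrome, T preceded TGACGTCA at 3.94% of the ends in peaks and at 15.0% of the ends of unmasked CREs outside peaks. The shares in peaks were 36.7% for A, 37.5% for G and 21.9% for C, against 30.4, 26.9 and 27.7% outside. At promoters G preceded 51.7% of the ends in peaks, against 43.2% of those of promoter CREs outside peaks. Outside promoters A was the most frequent base in peaks, at 44.2%. The fully symmetric ATGACGTCAT made up 21.6% of CREs in peaks outside promoters and 2.01% of those at promoters, and GTGACGTCAC made up 9.54% and 24.8%. Among unmasked CREs not in a peak the shares were 10.6% and 3.45% for ATGACGTCAT and 7.49% and 20.7% for GTGACGTCAC, so the contrast between promoters and the rest was present in CREs without a peak as well. These are counts over sites, and no test was made of them.

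Other promoter motifs were searched on both strands in the window outside the site. The GC box GGGCGG, known from Sp1, was in 51.3% (42.2 to 60.3%) of promoter CRE peaks and 44.4% (41.9 to 46.9%) of promoter peaks without a CRE. The ETS motif CCGGAAG was in 18.6% (12.5 to 26.7%) and 13.6% (11.9 to 15.4%), the CCAAT box in 21.2% and 23.9%, and the E-box CACGTG in 13.3% (8.21 to 20.8%) and 8.09% (6.80 to 9.59%). Over all EpiSC peaks these 4 motifs were in 10.6, 3.22, 20.2 and 4.29% of windows. Between promoter peaks with and without a CRE the intervals overlap for each motif. Promoter TRE peaks held the GC box in 25.5% (20.5 to 31.2%) and the ETS motif in 6.27% (3.90 to 9.95%). Both lie below the promoter CRE intervals, while those of the CCAAT box and E-box overlap. Outside promoters the GC box was in 9.91% (6.70 to 14.4%) of CRE peaks and 4.95% (4.47 to 5.48%) of TRE peaks. The E-box was in 6.47% (3.96 to 10.4%) and 3.41% (3.02 to 3.86%), while the ETS and CCAAT intervals overlap. No test was made of these. The composite C/EBP-ATF element TGATGCAA was in 1 of 113 promoter CRE peaks and 3 of 232 elsewhere, against 1.29% of all EpiSC peaks and 0.439% of flanks.

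The fold enrichment of CRE peaks was 6.35 at the median (quartiles 5.15 and 7.94, 2.85 to 28.1), against 6.84 for TRE peaks and 5.82 for peaks with neither site. A fold above the list median of 6.16 was found in 52.5% of CRE peaks and 61.7% of TRE peaks, a difference of -9.28 points (-14.7 to -3.95, Fisher's exact test, adjusted p = 0.00161). CRE peaks at promoters had a median fold of 5.82 and those elsewhere 6.84, while TRE peaks had 6.44 and 6.84. Within promoters the difference was -9.19 points (-19.8 to 1.87, Fisher's exact test, adjusted p = 0.162) and outside them -5.17 points (-11.7 to 1.14, adjusted p = 0.162), so neither passed the threshold and both intervals include 0. When the whole called peak was searched for sites in place of its central 200 bp, the overall difference was -5.47 points (Fisher's exact test, adjusted p = 0.0544) and that outside promoters 0.256 points (adjusted p = 0.949). Reads at the summit, solved from the deposited fold and p-value, had a median of 11 in both classes, and 144 of the CRE peaks rested on 10 reads or fewer. Over all EpiSC peaks the median was 10 reads, so low read numbers were not particular to CRE peaks.

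The peaks were also ranked by score and divided into 10 groups. The share with a CRE was 1.48% (0.999 to 2.20%) in the lowest-scoring group and 2.54% (1.88 to 3.42%) in the highest, with 2.72% in the seventh as the largest value. The TRE share went from 25.4% to 64.4% over the same groups. No test was made of these changes or of their difference. Promoter peaks made up 14 of the 24 CRE peaks in the lowest-scoring group and 9 of the 41 in the highest, with no steady change in between. Over all peaks the promoter share was 17.1% in the lowest-scoring group and 4.02% in the highest.

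**Figure D5:**
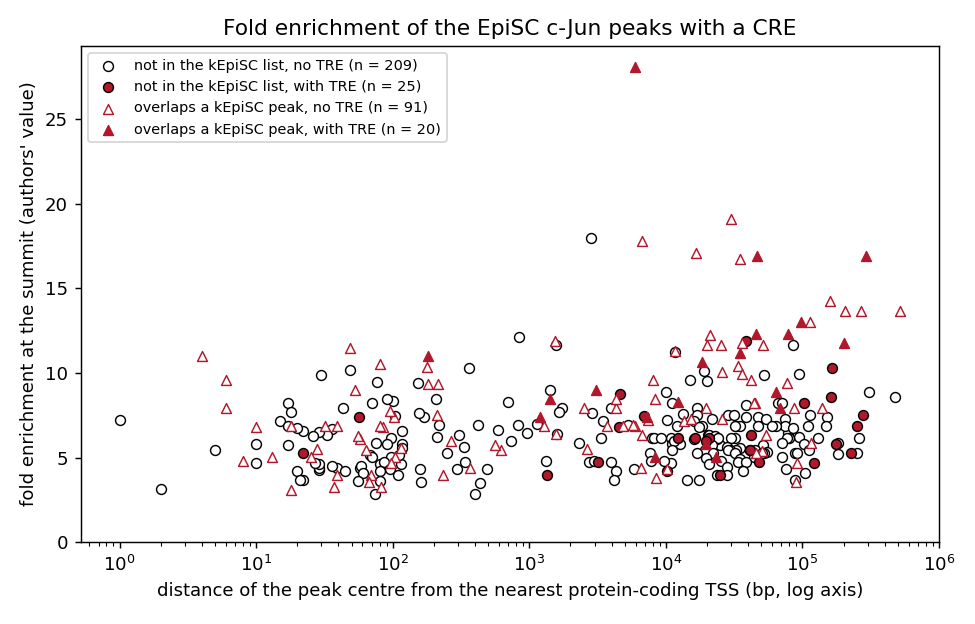
Fold enrichment at the summit of each of the 345 CRE peaks (authors' value, vertical axis) by distance from the nearest protein-coding TSS (log axis). Triangles overlap a kEpiSC peak and filled symbols hold a TRE as well. The highest folds, up to 28.1, lie at peaks over 1000 bp from a TSS, and promoter peaks reach 12.1.

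A TRE was rarer in CRE peaks than in the other peaks of the list. It was in 13.0% of CRE peaks (45 of 345) and 46.6% of peaks without a CRE, a difference of -33.5 points (-36.8 to -29.5, Fisher's exact test, adjusted p = 5.32e-39). Flanks 2000 bp away held a TRE in 4.02% of cases, below both groups. With the whole called peak searched, the shares were 21.6% and 51.8%. Every window is a called c-Jun peak, and a list selected for binding can by itself set 2 bound sites against each other. The test therefore cannot show whether the 2 sites avoid each other. The 45 peaks with both sites had a median fold of 7.41 (3.96 to 28.1) and the 300 with a CRE alone 6.25 (2.85 to 19.1). They lay farther from genes, with a median distance of 23139 bp against 6236 bp. The highest-scoring of them after Gpld1 were near Fam136a and Xylt1, each with a fold of 16.9, and the CRE was 51 and 23 bp from the nearest TRE. Peaks with both sites near Adtrp (fold 13.0), in the UTR of Nrip1 (12.3), a nuclear receptor corepressor gene, near Ccdc32 (12.3) and in intron 5 of Zbtb20 (11.8, nearest TSS Tigit) followed. In these the sites were 95, 83, 68 and 44 bp apart, so these peaks shared no single spacing.

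Some of the higher-scoring CRE peaks lay far from genes. Among those over 50 kb from a protein-coding TSS, the peak nearest to Brinp2 had a fold of 14.2, 157900 bp downstream of its TSS. A peak in exon 2 of the noncoding RNA Morrbid, 203453 bp from the TSS of the proapoptotic gene Bcl2l11, had a fold of 13.7. Peaks in intron 5 of Pde4d (nearest TSS Rab3c, 518940 bp), in intron 3 of St6galnac3 and in intron 4 of Kank1 had folds of 13.6, 13.7 and 13.0. Each of these 5 peaks held a CRE and no TRE in the central 200 bp. Each overlapped a kEpiSC peak, with folds there from 5.76 to 10.2. The peaks near Xylt1 and Adtrp and in Nrip1, named above, were also over 50 kb from a TSS. They held a TRE as well and overlapped a kEpiSC peak. All of these were taken by score, and 43.6% of CRE peaks above the list median fold overlapped a kEpiSC peak.

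In kEpiSCs 145 of 6032 c-Jun peaks held a CRE (2.40%, 2.05 to 2.82%), 9.67 times (6.53 to 14.3) the share in their flanks. Of these 145, 90 overlapped a CRE peak of the EpiSC list and 107 overlapped an EpiSC peak of any kind. From the EpiSC side, 4573 peaks of all kinds overlapped the list of 6032 kEpiSC peaks. The share of all kEpiSC peaks that overlap an EpiSC peak was not counted, so these overlaps are not read as particular to CRE peaks. The 145 kEpiSC CRE peaks were at promoters in 35.2% of cases (27.9 to 43.2%), against 3.37% for the kEpiSC TRE peaks, and 20.0% held a TRE. Their median fold was 7.09, close to the 7.23 of the whole kEpiSC list.

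From the EpiSC side, 111 of the 345 CRE peaks (32.2%, 27.5 to 37.3%) shared at least 1 bp with a kEpiSC peak, against 36.4% of TRE peaks, 21.1% of peaks with neither site and 28.3% of all peaks. The difference from TRE peaks was -4.23 points (-9.06 to 0.992, Fisher's exact test, adjusted p = 0.162). Among peaks above the list median fold the shares were 43.6% and 46.4% (difference -2.74 points, -9.91 to 4.69, Fisher's exact test, adjusted p = 0.593), and among the rest 19.5% and 20.3% (-0.771 points, -6.32 to 6.12, adjusted p = 0.920). The overlap was higher above the median fold than below it in both classes, and a difference between CRE and TRE peaks was not detected. CRE peaks overlapped at 34.5% at promoters and 31.0% elsewhere, and at 44.4% (20 of 45) with a TRE and 30.3% without. In 96 of the 111 the CRE itself lay within the kEpiSC peak. The 111 shared peaks had a median fold of 7.72 in EpiSCs and 7.23 in kEpiSCs, and the kEpiSC value was the higher in 46 of them. The folds of the lists are not taken to be on a common scale, since each line has its own peak list and library depth was not analysed. The 234 CRE peaks without a kEpiSC peak had a median EpiSC fold of 6.16. The highest-scoring of them were those at Csrp1 (18.0), Bcas2 (10.2), Atp5d (12.1) and in intron 1 of Rnf122 (11.6), a RING finger gene.

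A CRE peak centre lay within 10 kb of a TSS for 218 of 21000 protein-coding genes (1.04%), and a TRE peak without a CRE for 1882 (8.96%). Of 30 known CREB target genes, 5 had a CRE peak and 5 a TRE peak. The 5 with a CRE peak were Dusp1 (fold 9.35), Gem (8.21), a small GTPase gene, Vgf (7.94), which encodes a secreted neuropeptide precursor, the cyclin gene Ccna2 (6.42) and the kinase gene Sik1 (3.95). At all 5 the CRE was within 1000 bp of the TSS, between 68 and 236 bp upstream at Gem, Vgf, Dusp1 and Sik1 and 990 bp downstream at Ccna2. From the peak summit it was centred 8 bp away at Gem, 29 bp at Sik1, 36 bp at Ccna2, 89 bp at Vgf and 125 bp at Dusp1. The CREs of Vgf, Gem and Sik1 are shown because they are at known CREB targets.
Vgf (chr5:137030179-137030238): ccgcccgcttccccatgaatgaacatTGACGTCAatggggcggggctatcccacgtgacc
Gem (chr4:11704349-11704408): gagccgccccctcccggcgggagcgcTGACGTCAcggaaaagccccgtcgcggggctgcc
Sik1 (chr17:31856010-31856069): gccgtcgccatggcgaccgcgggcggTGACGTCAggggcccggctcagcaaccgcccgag
At Sik1 the CRE also lay within a kEpiSC peak, with a fold of 6.95. At Dusp1 the EpiSC peak overlapped a kEpiSC peak (fold 7.37) that did not reach the CRE, and at Gem, Vgf and Ccna2 no kEpiSC peak overlapped. Since the list is small and was chosen with results of these data known, its count is a description beside the 1.04% of all genes.

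Each of the other gene lists held between 0 and 2 genes with a CRE peak. Of 31 genes of bZIP factors that bind CRE or AP-1 sites, which include the partners of c-Jun, none had a CRE peak within 10 kb and 8 had a TRE peak. Of 26 genes of the unfolded protein and integrated stress responses, Ddit4 (fold 6.16, 7938 bp upstream of the TSS), an inhibitor of mTORC1, and Ppp1r15a (5.29), whose product dephosphorylates eIF2alpha, had a CRE peak and 4 genes a TRE peak. At Ppp1r15a the CRE was 9 bp upstream of the TSS. Of 22 JNK pathway genes, Dusp1 and Dusp8 had a CRE peak and 4 genes a TRE peak. Of 28 genes of DNA replication, repair and the cell cycle, Ccna2 and Mcm5 (5.73), a subunit of the replicative helicase, had a CRE peak and 3 genes a TRE peak. None of the 24 naive and none of the 22 primed pluripotency genes had a CRE peak, while 6 and 3 had a TRE peak. The counts of 0 to 5 genes per list stand beside 1.04% of all genes for CRE peaks and 8.96% for TRE peaks. For CRE peaks the shares were 7.69% (stress responses), 9.09% (JNK pathway) and 7.14% (replication, repair and cell cycle). For TRE peaks they were 15.4, 18.2 and 10.7%. At 1.04% of all genes, lists of 22 to 31 genes would mostly hold none, so the counts of 0 do not show scarcity. The lists are small, and no test was made of them.

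The CRE peaks were spread over the genome. They had 330 different nearest genes, and 5 pairs of neighbouring CRE peaks lay within 10 kb of each other, the closest 362 bp apart. By chromosome the share of peaks with a CRE lay between 1.02% and 3.18% on the autosomes, and 3 of the 96 peaks on X held one.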

How the data were processed

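The study provided 1 c-Jun ChIP-seq peak list for each of 2 mouse lines, with 2 ChIP and 2 input libraries per line. The authors aligned to mm10 by Bowtie2, retained reads with a unique position and ran MACS2 with its defaults. The submitters' processing notes also name SAMtools, bcl2fastq and bedtools, without versions. For each peak the authors deposited a score, derived from its q-value, the fold over the local background, the −log10 p-value and the summit position. The deposited −log10 q-value was not used. Reads per library are not analysed here. The reads behind a peak were solved from the deposited fold and p-value, which met both within 0.01 in −log10 p for 100% of peaks.

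CREs and TREs were sought in the central 200 bp of each peak, on both strands, and in windows 2000 bp upstream and downstream, in the mm10 sequence of RefSeq GRCm38.p6, whose 45302 curated transcripts gave the TSSs and exons. The centre of a peak was assigned to a promoter first and otherwise to a coding exon, UTR, noncoding exon, intron or intergenic sequence. Shares have 95% Wilson intervals and differences Newcombe intervals. CRE peaks and TRE peaks were compared by two-sided Fisher's exact tests with Benjamini-Hochberg adjustment over 12 tests and a threshold of 0.05. Other counts and ratios are descriptions with no test.

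The members, the gene lists and the tests were chosen with earlier results of these data known. The text names the genes nearest to the 10 highest-scoring CRE peaks, the 10 highest-scoring at promoters, up to 10 with several CREs, up to 8 with a TRE, up to 8 over 50 kb from a TSS, up to 8 with and 4 without a kEpiSC peak, up to 12 with a CRE within 200 bp of a TSS and the 5 lowest-scoring, and up to 6 genes with a CRE peak per list; not every gene the rule allows is reported here. Sequences of Vgf, Gem and Sik1 were added after their values were seen. Alternatives covered the window, peaks scoring above the median, the flank, a mismatch, the promoter, the overlap, the CpG measure, the summit distance, CRE peaks without a TRE and the gene distance. The calculations were tested on simulated data. The tools were scipy 1.17.1, statsmodels 0.14.6, numpy 2.4.6 and pandas 2.3.3 under Python 3.11.15, and figures were drawn with matplotlib 3.10.9.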

Additional observations from a re-analysis of the deposited data

How the results depend on the processing

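Of 55 alternative values of the tested comparisons, 50 kept their direction and their side of the threshold. The promoter, CpG, repeat and TRE differences between CRE peaks and the peaks they were compared with did so under each alternative run. When the whole called peak was searched, the fold difference was -5.47 points (Fisher's exact test, adjusted p = 0.0544) and its value outside promoters turned to 0.256 points (adjusted p = 0.949). Among peaks scoring above the list median the summit difference was -5.74 points (Fisher's exact test, adjusted p = 0.271) and the width difference turned to -0.263 points (adjusted p = 1), and without CRE peaks that held a TRE the summit difference was -4.67 points (adjusted p = 0.165). The cause of these changes was not tested. Allowing 1 mismatch lowered the ratio of the CRE share in peaks to that in flanks to 3.52. A distance of 50 kb gave 659 genes with a CRE peak and 2 of the bZIP list, the nearest TSS gave 330 genes and 1 of that list, and 5 kb gave 1 gene of the stress response list. The search of whole peaks was not run for the share against flanks, since peaks of varying length have no matching flank. No paired analysis was possible because the deposited lists, 1 per line, give nothing for single replicates, and leaving out a replicate could not be tried either. Depth limits the values of single peaks, as 144 of the 345 CRE peaks rested on 10 reads or fewer at the summit. The median of all EpiSC peaks was 10 reads.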
